A study of Mus musculus with 2 samples.

Results

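The genes described here are 4 CXC chemokines that attract neutrophils, Cxcl1, Cxcl2, Cxcl3 and Cxcl5, and their receptor Cxcr2. They were chosen by symbol, and all 5 were among the 28692 genes listed in both count matrices. The question was which cells held the ligand transcripts, which held the receptor, and how the levels differed by lineage, by cluster and by library. The mice were female BALB/c carrying mammary fat pad tumors of the triple-negative breast carcinoma line 4T1, treated with anti-PD1 for 2 weeks. 4T1p is the parental line, which resists the therapy, and 4T1m is a polyclonal population made from it with the mutagen MNNG, which responds. GR-1+ cells were taken from the tumors by magnetic positive selection, and each tumor type gave 1 library of the 10x Genomics 3′ v3 kit. Both libraries came from treated mice, so no untreated sample entered the comparison.

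With 1 library per tumor type, no difference was tested, and the 95% intervals in parentheses (exact Poisson for levels, exact binomial for shares and ratios) cover counting error only. The median number of unique molecular identifiers (UMIs, 1 per captured transcript) over all barcodes was 2066 for the label 4T1p and 2763 for 4T1m. The study's methods give each of these medians for the other tumor type, so every direction between the libraries rests on the deposited labels. Paired values below are given for the library labelled 4T1p first and the library labelled 4T1m second. Of 1641 and 2749 barcodes, 1128 and 2092 had 250 to 5000 genes, at most 27000 UMIs and a mitochondrial share within the study's limit, and no barcode occurred in both libraries. These 3220 cells fell into 12 clusters, formed without the 5 genes. Clusters 0, 4, 6 and 8 were granulocytic-like (1273 cells), clusters 1, 3, 5, 7 and 9 monocytic-like (1496 cells), cluster 10 B cell-like (36 cells) and cluster 11 T cell-like (29 cells). Cluster 2 (386 cells, led by Fabp5 and Lgals1) stayed unnamed. A cluster without a marker among its 10 leading genes was not named where its median depth in a library was below 33.3% of that library's, and cluster 2 stood at 32.8% in the library labelled 4T1m (899.5 of 2739 UMIs). At least 1 UMI of the leukocyte gene Ptprc was found in 18.9% to 32.4% of the cells of clusters 1, 2, 7 and 9 and in 71.8% to 100% of those of the others. The summed epithelial markers stood at 265.8 and 140.4 CPM (counts scaled to 1000000 UMIs of the group) in cluster 2. They stood at 19.3 and 9.79 CPM in granulocytic-like and 19.5 and 4.79 CPM in monocytic-like cells. Cluster 2 also had 3.02 and 533.4 CPM of summed fibroblast markers and 214.4 and 32.4 CPM of summed endothelial markers. Its summed monocytic markers were far higher, 15588 and 11614 CPM, against 30702 and 17769 CPM in monocytic-like cells. The most frequent monocytic marker was found in 82.6% of its cells. The most frequent epithelial, fibroblast and endothelial markers were found in 5.18%, 1.55% and 6.22%. No cluster was led by epithelial or fibroblast markers.

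CXC chemokines of this group carry a Glu-Leu-Arg motif and act through CXCR2, a receptor coupled to inhibitory G proteins that steers neutrophils along a ligand gradient. Their genes are induced rapidly by NF-kB after cytokine or microbial signals, and the mRNAs are short-lived. CXCR2 on neutrophils also drives their release from bone marrow, where CXCR4 holds them back.

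The 4 ligand genes lie on the plus strand of chromosome 5 in GRCm38 (GENCODE M21 annotation), Cxcl5 at chr5:90759360-90761624, Cxcl3 at chr5:90786103-90789600, Cxcl1 at chr5:90891241-90893115 and Cxcl2 at chr5:90903871-90905938. Cxcr2 lies at chr1:74153989-74161246, also on the plus strand. All 5 are annotated as protein coding. The RefSeq promoter table (GRCm38.p6) held 4 of the 5 genes and no entry for Cxcl5. The stretches from -150 to -31 relative to the RefSeq gene start are shown for the 3 ligands whose levels are described below, because each contains the same match to the NF-kB consensus motif. Capitals mark the bases of the match, which occurs on both strands with the 2 matches shifted by 1 base. The motif was chosen after these promoters had been looked at.
Cxcl1, chr5:90891095-90891214, plus strand: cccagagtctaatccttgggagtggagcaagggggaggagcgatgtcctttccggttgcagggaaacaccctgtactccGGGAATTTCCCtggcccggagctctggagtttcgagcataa
Cxcl2, chr5:90903749-90903868, plus strand: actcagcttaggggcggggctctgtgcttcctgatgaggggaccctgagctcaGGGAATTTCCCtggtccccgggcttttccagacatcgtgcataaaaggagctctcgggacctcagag
Cxcl3, chr5:90785951-90786070, plus strand: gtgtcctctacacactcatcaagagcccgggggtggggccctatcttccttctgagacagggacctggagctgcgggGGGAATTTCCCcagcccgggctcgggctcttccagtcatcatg
The match lay 71 to 61 bases before the start of Cxcl1, 97 to 87 before that of Cxcl2 and 73 to 63 before that of Cxcl3. Of 32851 promoters in the table, 2382 (7.25%) held a match on either strand in the 250 bases before the start, and the entry of Cxcr2 held none. A match is a description of the letters and no evidence of binding.

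The amount of each transcript differed widely among the 5 genes. Levels are given in CPM, and since the kit counts transcript ends they do not depend on transcript length. Over all kept cells Cxcl2, a main neutrophil chemoattractant of activated myeloid cells, had the highest level of the 5, 13648 and 23619 CPM. Cxcl1, its close paralog, followed with 1332 and 2762 CPM. Cxcl3 had 484.5 and 1370 CPM, and Cxcr2 55.6 and 114 CPM. Cxcl5, best known from epithelial and stromal cells, had 2 and 27 UMIs in all, or 0.359 (0.0435 to 1.30) and 2.49 (1.64 to 3.63) CPM. Of its 29 UMIs 19 were in cluster 5, in 8 cells, and no ratio is given for it.

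The receptor and Cxcl1 were at opposite ends of the lineages, and Cxcl2 and Cxcl3 were shared. Granulocytic-like cells held 93.2% (89.8 to 95.8) and 95.5% (94.2 to 96.6) of all Cxcr2 UMIs, with 14.9% and 29.2% of all UMIs. Monocytic-like cells held 91.9% (91.2 to 92.5) and 92.4% (92.0 to 92.7) of Cxcl1, with 78.1% and 63.6% of all UMIs. Cxcl2 was split, with 44.3% and 53.3% of its UMIs in granulocytic-like cells and 54.2% and 46.1% in monocytic-like cells. Cxcl3 was split as well, with 59.4% and 50.5% in granulocytic-like cells. The lineages are marker-defined: S100a8, the leading granulocytic marker, stood at 68122 and 68376 CPM in granulocytic-like cells and at 339.9 and 442.1 CPM in monocytic-like cells.

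**Figure D1:**
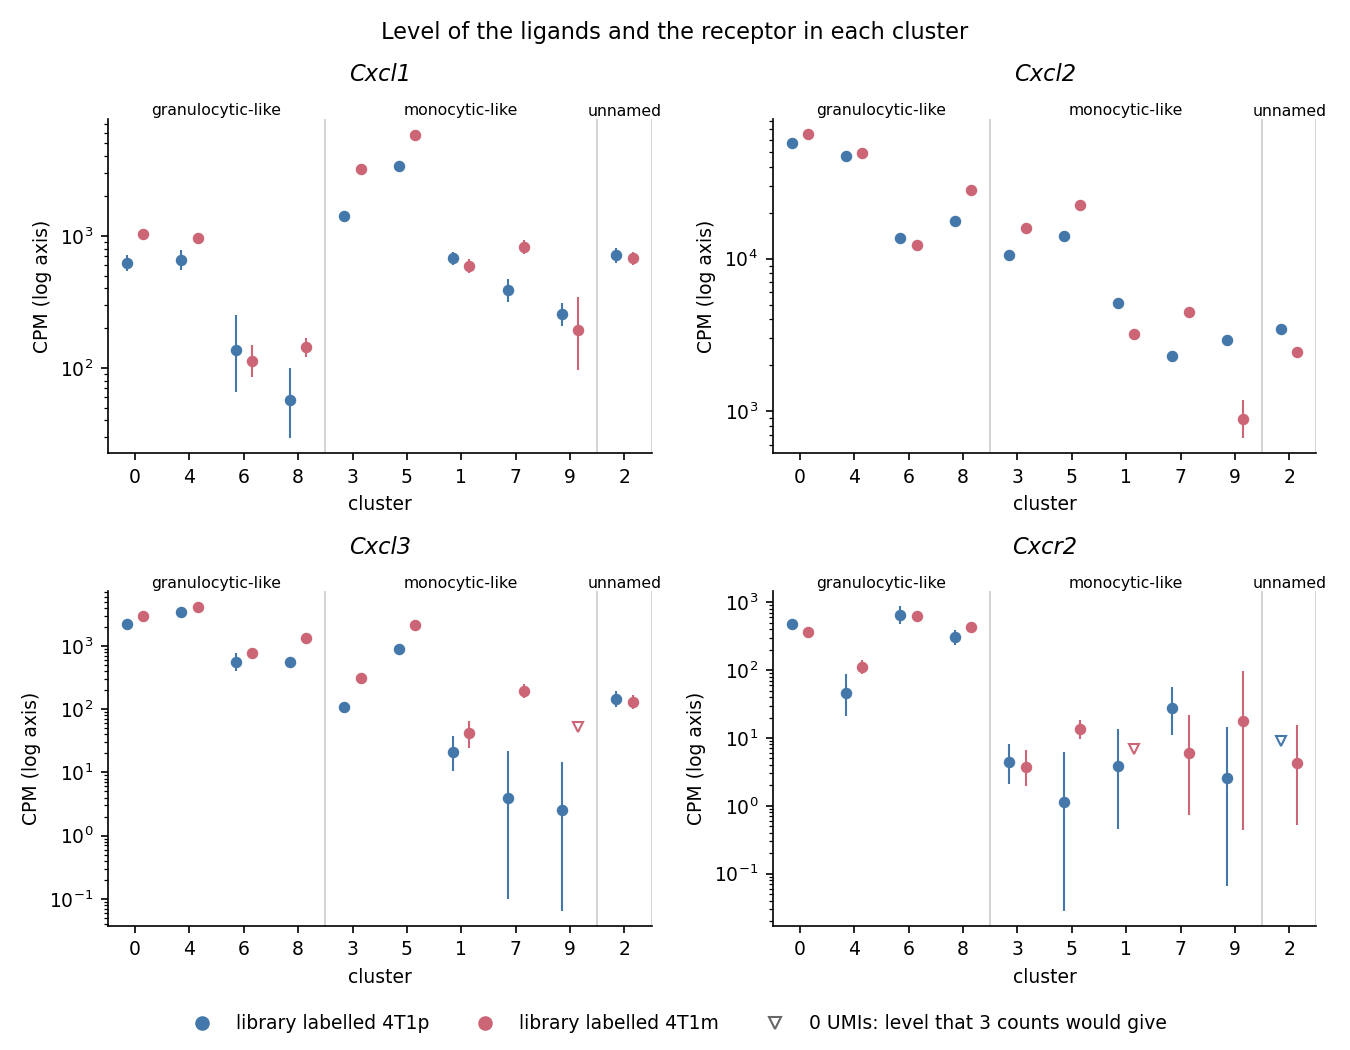
Level (CPM, log axis) of Cxcl1, Cxcl2, Cxcl3 and Cxcr2 in clusters of granulocytic-like (0, 4, 6, 8), monocytic-like (3, 5, 1, 7, 9) and unnamed (2) cells, by library, with exact 95% Poisson intervals; open triangles stand for groups with 0 UMIs and are drawn at the level of 3 counts. Cxcl1 peaks in cluster 5 (3383 and 5832 CPM), Cxcl2 in cluster 0 (56697 and 65193 CPM), Cxcl3 in cluster 4 (3416 and 4058 CPM) and Cxcr2 in cluster 6 (659.5 and 624.9 CPM).

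Cxcl2 was among the most abundant transcripts of these cells. In granulocytic-like cells it stood at 40726 (40293 to 41163) and 43050 (42822 to 43280) CPM, rank 4 of all genes in both. In monocytic-like cells it stood at 9462 and 17131 CPM, rank 9 and rank 2. The log2 ratio of granulocytic-like to monocytic-like CPM was 2.11 (2.08 to 2.13) and 1.33 (1.32 to 1.34). The lineages also differed in depth, with a median of 2717 and 2481 UMIs per granulocytic-like cell against 1813.5 and 8118 per monocytic-like cell. Counted per cell, the log2 ratio was 1.24 and -0.20. In the library labelled 4T1m a granulocytic-like cell held 133 Cxcl2 UMIs on average and a monocytic-like cell 153.

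Cluster 0, led by Mirt1, Il1f9, Csf1 and Irg1, held the highest Cxcl2 level of the granulocytic-like clusters, 56697 (55910 to 57492) and 65193 (64722 to 65666) CPM, where it ranked first of all genes in both libraries. The median cell of cluster 0 spent 5.35% and 5.85% of its UMIs on Cxcl2, and the highest cell 15.6% and 20.2%. Cluster 4, led by Ccdc126, Ciart and Ero1l, came next at 47280 and 48893 CPM, held by a smaller part of its cells. In it 9 of 82 and 36 of 272 cells held 50% of the Cxcl2 UMIs, against 27 of 110 and 88 of 347 in cluster 0. The median cell of cluster 4 spent 2.16% and 2.69% of its UMIs on Cxcl2. Of the cells of cluster 4, 26.8% and 33.5% were over 5% Cxcl2, against 53.6% and 60.5% in cluster 0. Cluster 8, whose leading genes Camp, Ngp and Ltf encode granule proteins of immature neutrophils, had 17549 and 28197 CPM. Cluster 6, led by Slc2a3, Steap4, Sh2d3c and Prok2, had the lowest level of the 4, 13712 and 12282 CPM.

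**Figure D2:**
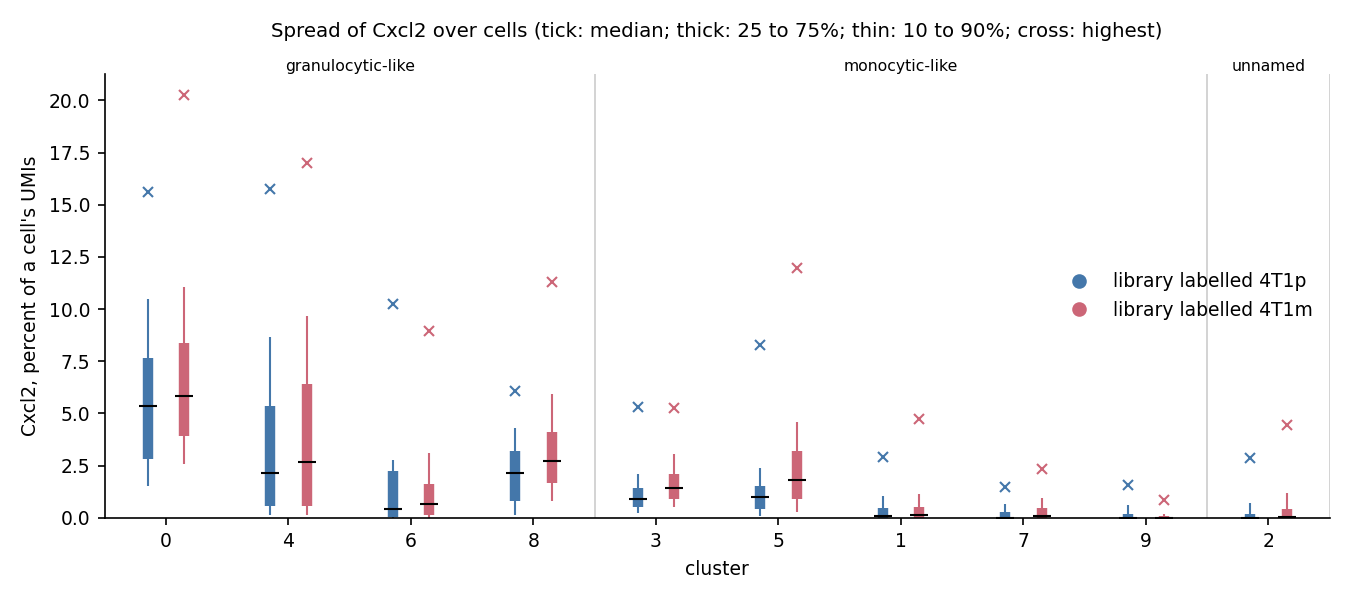
Percent of each cell's UMIs that belonged to Cxcl2, by cluster and library: median (black tick), middle 50% of cells (thick bar), 10th to 90th percentile (thin line) and highest cell (cross). The medians of cluster 0 are 5.35% and 5.85%, and those of clusters 3 and 5 lie between 0.884% and 1.80%.

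Among monocytic-like cells Cxcl2 was highest in clusters 5 and 3. Cluster 5, led by Thbs1, Ednrb and Vcan, had 13979 and 22469.6 CPM, and cluster 3, led by Ccl5, Ifnb1 and Grasp, had 10613 and 15791 CPM. Clusters 1, 7 and 9 lay lower, between 897.7 and 5094 CPM, and the unnamed cluster 2 had 3443 and 2455 CPM. Levels in these lower clusters rested on few cells: in cluster 9 of the library labelled 4T1p, 4 of 126 cells held 50% of the Cxcl2 UMIs, against 27 of 110 cells in cluster 0. Lymphocytes, which should lack these transcripts, give the background. B cell-like cells of the library labelled 4T1m had 185 (128 to 260) CPM of Cxcl2, and after thinning to 1000 UMIs 11.8% (3.30 to 27.5) of them held a Cxcl2 UMI. The thinned shares of clusters 1, 7, 9 and 2 were 35.2% to 64.0% and those of the other named myeloid clusters 81.5% to 99.1%. T cell-like cells of the same library had 2027 CPM, of which 252 of 270 UMIs came from 1 cell, and a thinned share of 33.3% (14.6 to 57.0) of 21 cells. The shares of clusters 1, 7, 9 and 2 all lay above the B cell-like interval. Within the wide T cell-like interval were cluster 2 (35.2% and 36.3%) and cluster 9 (41.4% and 44.4%). So were clusters 1 (51.2%) and 7 (47.6%) of the library labelled 4T1p. That library had only 1 B cell-like and 8 T cell-like cells, with a thinned share of 0% (0 to 36.9) in the T cell-like cells. Its clusters 1, 7 and 9 lay above that interval and its cluster 2 within it.

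Cxcl1 had the opposite order of lineages. It stood at 443.3 (399.1 to 491.0) and 614.4 (587.4 to 642.3) CPM in granulocytic-like cells and at 1567 (1530 to 1605) and 4010 (3963 to 4058) CPM in monocytic-like cells, 3.54-fold and 6.53-fold higher in the latter. After thinning, 14.4% and 14.6% of granulocytic-like cells and 33.9% and 61.5% of monocytic-like cells held a Cxcl1 UMI, against 2.94% (0.0744 to 15.3) of B cell-like and 9.52% (1.17 to 30.4) of T cell-like cells of the library labelled 4T1m. In that library the granulocytic-like share of 14.6% lay within both lymphocyte intervals, as did 7.0% in cluster 6 and 8.0% in cluster 8. Above the B cell-like but within the wide T cell-like interval were clusters 0 (20.5%), 4 (16.5%), 1 (26.7%), 7 (25.3%), 9 (27.8%) and 2 (20.6%). Only clusters 3 (69.4%) and 5 (80.7%) lay above both. Cluster 5 was highest with 3383 and 5832 CPM, and cluster 3 followed with 1420 and 3223 CPM. Clusters 1, 7 and 9 had between 193.6 and 828.4 CPM, and clusters 6 and 8, the lowest of the myeloid clusters, between 56.9 and 143 CPM. The transcripts were unevenly spread: 27 of 726 monocytic-like cells held 50% of the Cxcl1 UMIs in the library labelled 4T1p, against 77 of 770 in the other.

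Cxcl3, the third of the closely related ligands, was highest in cluster 4 with 3416 (3162 to 3686) and 4058 (3899 to 4221) CPM. Cluster 0 followed with 2229 and 3002 CPM, and in monocytic-like cells cluster 5 with 891.0 and 2148 CPM. Cluster 3, which resembled cluster 5 in Cxcl2, had 106 and 315 CPM of Cxcl3. Clusters 1 and 9 had at most 18 Cxcl3 UMIs in a library. Granulocytic-like cells had 8.03-fold and 2.24-fold the CPM of monocytic-like cells, and the log2 ratio per cell was 2.14 and -0.37. In the library labelled 4T1p, 5 of 726 monocytic-like cells held 50% of the Cxcl3 UMIs of that lineage. Cxcl2 and Cxcl3 transcripts share 126 stretches of 50 bases. In the annotated Cxcl3 transcripts these lie at least 850 bases from the 3′ end and in the annotated Cxcl2 transcripts at least 227, and reads there could be credited to either gene.

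The mix of ligands therefore differed by lineage. Of the ligand UMIs, Cxcl1 made up 1.03% and 1.33% in granulocytic-like cells and 13.9% and 18.1% in monocytic-like cells. Within monocytic-like clusters its share ran from 8.02% in cluster 9 of the library labelled 4T1p to 19.1% in cluster 5 of the library labelled 4T1m. Every granulocytic-like cluster was below 2% in both libraries, with 1.80% the highest, in cluster 4. Cxcl3 took its largest shares in cluster 4 (6.65% and 7.53%) and cluster 5 (4.88% and 7.05%). The unnamed cluster 2 had a Cxcl1 share of 16.5% and 20.7%, in the range of the monocytic-like clusters or above it.

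**Figure D3:**
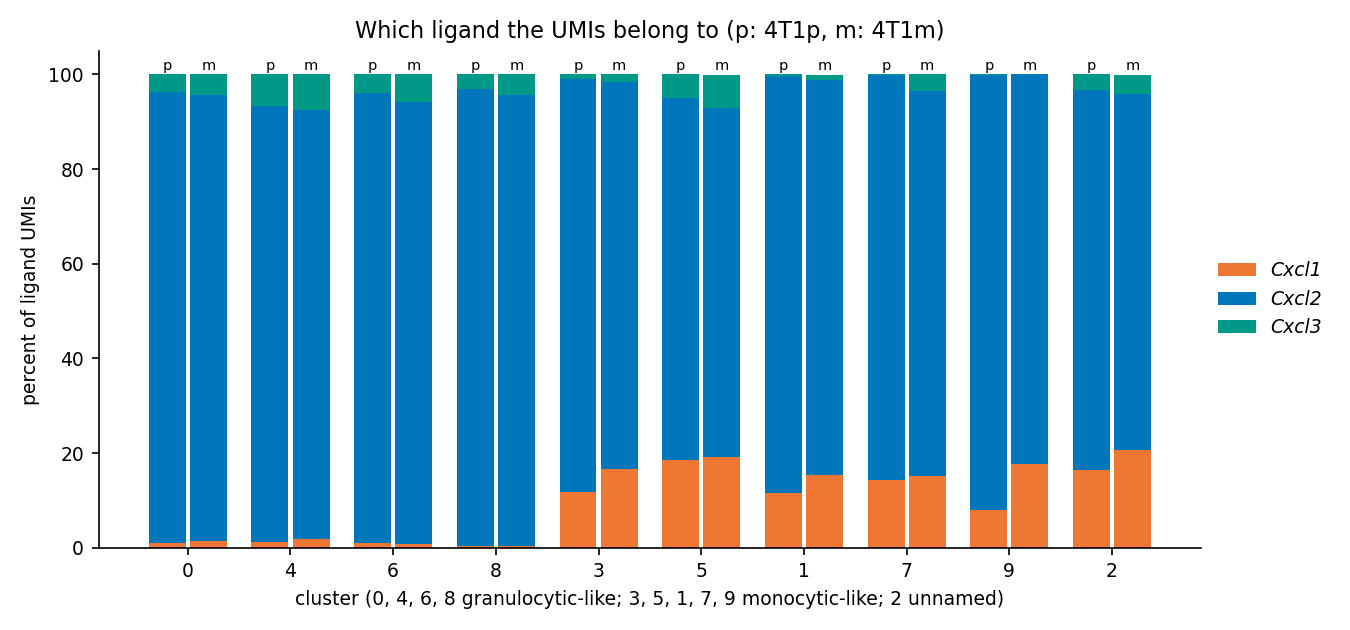
Percent of the summed Cxcl1, Cxcl2 and Cxcl3 UMIs that belonged to each ligand, by cluster and library (left bar 4T1p, right bar 4T1m); Cxcl5 is too rare to be seen and each bar ends at or near 100%. Cxcl1 is below 2% in all 4 granulocytic-like clusters and 8.02% or more in the others, and cluster 9 of 4T1m rests on 62 ligand UMIs.

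Cxcr2 was found almost only in granulocytic-like cells. Its level there was 349.1 (310.0 to 391.7) and 373.8 (352.8 to 395.7) CPM, against 4.83 (2.99 to 7.38) and 7.84 (5.89 to 10.2) CPM in monocytic-like cells, 72.3-fold and 47.7-fold higher. After thinning, 25.3% and 28.8% of granulocytic-like cells held a Cxcr2 UMI, against 0.598% and 0.588% of monocytic-like cells, and 0 of 34 B cell-like cells of the library labelled 4T1m held one. The monocytic-like cells with a Cxcr2 UMI as deposited, 9 and 26, were unlike the others of their lineage. They had a median of 5 and 6 of the 9 granulocytic markers, against 1 and 2 in monocytic-like cells without Cxcr2. Of the 10 monocytic markers they had a median of 9, against 7. Their median depth was 10522 and 14106 UMIs, against 1803 and 7659 in those without, and the marker counts were not thinned. By the highest Scrublet scores, 1 and 5 of them were marked as doublets, against 4 of 717 and 13 of 744 without Cxcr2. The part of depth or of mixed droplets in these counts was not tested.

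The granulocytic-like clusters differed in the receptor. Cluster 6 had the highest Cxcr2 CPM, 659.5 (486.3 to 874.4) and 624.9 (554.6 to 701.7), the former from 35 cells. Cluster 4 had the lowest, 46.2 (21.1 to 87.8) and 111 (86.5 to 141) CPM. Clusters 0 (477.9 and 362.9 CPM) and 8 (308.0 and 433.0 CPM) lay between, in opposite orders in the libraries. Counted per cell, cluster 8 held the most, 2.71 and 2.81 Cxcr2 UMIs, against 1.37 and 1.13 in cluster 6. Cells of cluster 8 were deeper, with medians of 6014.5 and 5129.5 UMIs against 2026 and 1555. After thinning, 37.5% and 43.3% of cluster 8 cells and 33.3% and 44.5% of cluster 6 cells held a Cxcr2 UMI. Cluster 6 also had the highest level of Csf3r, the receptor of the neutrophil growth factor G-CSF, with 1346 and 1154 CPM, and cluster 4 the lowest, 631.9 and 545.5 CPM. Cxcr4, which retains neutrophils in bone marrow, was highest in cluster 0 (237.5 and 184.5 CPM) and lowest in cluster 8 (47.4 and 40.1 CPM). Cxcr1, the other receptor of the family, had 62.8 and 45.5 CPM in granulocytic-like cells and 0.689 and 0.145 CPM in monocytic-like cells.

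Among the 4 granulocytic-like clusters, the receptor and the ligands did not run in parallel. By CPM, cluster 6, highest in Cxcr2, was the lowest of the 4 in Cxcl2 in both libraries, and cluster 4, lowest in Cxcr2, was the highest in Cxcl3. Per cell, where cluster 8 held the most Cxcr2, its 154 and 183 Cxcl2 UMIs came after the 180 and 212 of cluster 0. Cluster 0 was high in both Cxcr2 and Cxcl2. Single cells showed the same separation in part. Among granulocytic-like cells thinned to 1000 UMIs, those with a Cxcr2 UMI held 39.9 (38.3 to 41.6) and 34.7 (34.0 to 35.4) Cxcl2 UMIs per 1000, and those without one 43.5 (42.5 to 44.5) and 45.5 (45.0 to 46.0). Cxcl3 stood at 1.40 and 1.72 per 1000 in the former and 2.25 and 2.42 in the latter. Within cluster 0 the Cxcl2 values were 48.6 and 57.2 with Cxcr2 and 61.2 and 68.3 without. Over both libraries they were 11.9 with and 11.9 without in cluster 6, and 31.8 (30.5 to 33.1) with and 26.8 (25.8 to 27.9) without in cluster 8, so the clusters did not share 1 direction. Cxcl3 went the other way in cluster 4, the cluster richest in it, with 5.10 per 1000 in 29 cells with Cxcr2 and 2.91 (2.72 to 3.11) in 291 cells without. Ligand and receptor were often in the same cell: 91.4% (81.0 to 97.1) and 93.3% (89.7 to 96.0) of the thinned granulocytic-like cells with Cxcr2 also held a Cxcl2 UMI, against 94.7% (90.2 to 97.6) and 94.8% (92.8 to 96.3) of those without.

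**Figure D4:**
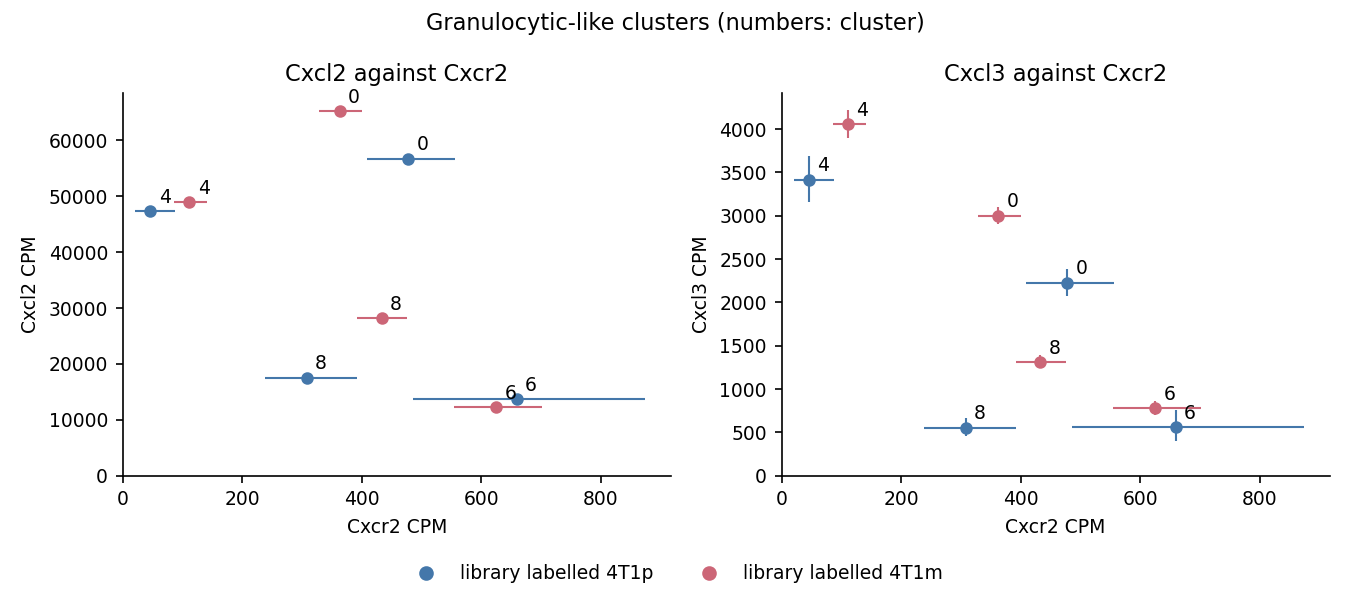
Cxcl2 (left) and Cxcl3 (right) CPM against Cxcr2 CPM in granulocytic-like clusters 0, 4, 6 and 8 of each library, with exact 95% Poisson intervals. Cluster 6 lies far right and low (659.5 and 624.9 CPM of Cxcr2), cluster 4 far left and high (46.2 and 111 CPM), and cluster 0 is high for Cxcl2 at an intermediate Cxcr2 level.

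A difference of at least 2-fold between lineages was read against all genes with at least 50 UMIs in the compared groups. In the library labelled 4T1p, 3 of the 4 genes with enough UMIs (Cxcl2, Cxcl3, Cxcr2) were at least 2-fold higher in granulocytic-like cells, as were 11.1% of 6920 genes, and Cxcl1 was at least 2-fold lower, as were 49.5%. In the library labelled 4T1m the same counts stood against 10.4% of 8410 genes higher and 53.8% lower. That count of 3 was 1 per cell, and also 1 with at most 5% mitochondrial UMIs, where the log2 ratios were 0.95 for Cxcl2 and 0.54 for Cxcl3. The median log2 ratio of all genes was -0.97 and -1.17, so a lower CPM in granulocytic-like cells, as for Cxcl1, was the usual state of a gene.

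Pooled by lineage, the ligands differed more between the libraries in monocytic-like than in granulocytic-like cells, a contrast that was not tested and whose direction would turn if the labels were exchanged. In monocytic-like cells Cxcl1 was 2.56-fold higher in the library labelled 4T1m, a log2 ratio of 1.36 (1.32 to 1.39), Cxcl3 4.38-fold higher at 2.13 (2.04 to 2.23), and Cxcl2 1.81-fold higher at 0.86 (0.84 to 0.87). Cxcr2 had 0.70, with an interval that includes 0. Cxcl1 and Cxcl3 were thus 2 of 4 genes at least 2-fold higher, against 7.47% of 8874 genes, and none of the 4 was at least 2-fold lower, against 1.98%. The median of all genes was 0.11. In granulocytic-like cells the log2 ratios were 0.47 (0.31 to 0.64) for Cxcl1, 0.08 (0.06 to 0.10) for Cxcl2, 0.29 (0.21 to 0.37) for Cxcl3 and 0.10 (-0.09 to 0.29) for Cxcr2. None of these was 2-fold in either direction, against 7.13% of 4490 genes higher and 3.23% lower, around a median of 0.06. By CPM, cluster 8 lay above the pooled lineage, with 1.33 (0.48 to 2.32) for Cxcl1, 0.68 (0.63 to 0.73) for Cxcl2 and 1.25 (0.97 to 1.53) for Cxcl3. Counted per cell, the 3 log2 ratios were 0.89, 0.24 and 0.81, against 0.77, 0.23 and 0.46 in cluster 0. The Cxcl1 ratio of cluster 8 rests on 12 and 139 UMIs, at a thinned share within the lymphocyte values in the library labelled 4T1m. Cluster 8 had 24 and 150 cells.

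The monocytic-like cells of the libraries were not the same mix. Cluster 1 held 263 of 726 and 162 of 770 cells and cluster 9 held 126 and 22, while cluster 5 held 84 and 266 and cluster 3 held 149 and 223. Of all UMIs, which weight the pooled levels, cluster 5 held 16.0% and 26.6% and cluster 3 held 41.2% and 29.4%. With each cluster given the same weight in both libraries, the log2 ratios were 0.92 for Cxcl1, 0.58 for Cxcl2 and 1.33 for Cxcl3. The same weighting in granulocytic-like cells gave 0.68, 0.23 and 0.47, each above its pooled ratio. The lineages thus lay closer for each of these ligands, with the monocytic-like ratio still the higher. Within cluster 3 the ratios of the ligands were 1.18 (1.13 to 1.24), 0.57 (0.55 to 0.60) and 1.57 (1.37 to 1.78). Within cluster 5 they were 0.79 (0.73 to 0.84), 0.68 (0.66 to 0.71) and 1.27 (1.16 to 1.38). In the proliferating cluster 7, led by Birc5 and Top2a, Cxcl1 had 1.10 (0.76 to 1.45) and Cxcl2 0.96 (0.82 to 1.10). These ratios rest on few cells: 5 of 104 and 4 of 97 cells held 50% of its Cxcl2 UMIs, and 4 and 4 cells 50% of its Cxcl1 UMIs. Clusters 1 and 9 had a lower Cxcl2 CPM in the library labelled 4T1m, with -0.67 (-0.76 to -0.57) and -1.71 (-2.14 to -1.30), as did the unnamed cluster 2 with -0.49 (-0.61 to -0.37). The thinned shares of cells with a Cxcl2 UMI were not lower there. They were 51.2% and 58.4% in cluster 1, 41.4% and 44.4% in cluster 9, and 35.2% and 36.3% in cluster 2. In the library labelled 4T1p, 50% of the Cxcl2 UMIs were in 6 of 263, 4 of 126 and 3 of 142 cells of these clusters. Cluster 9 of the library labelled 4T1m had only 22 cells. Cxcl1 in clusters 1, 9 and 2 had intervals that include 0.

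**Figure D5:**
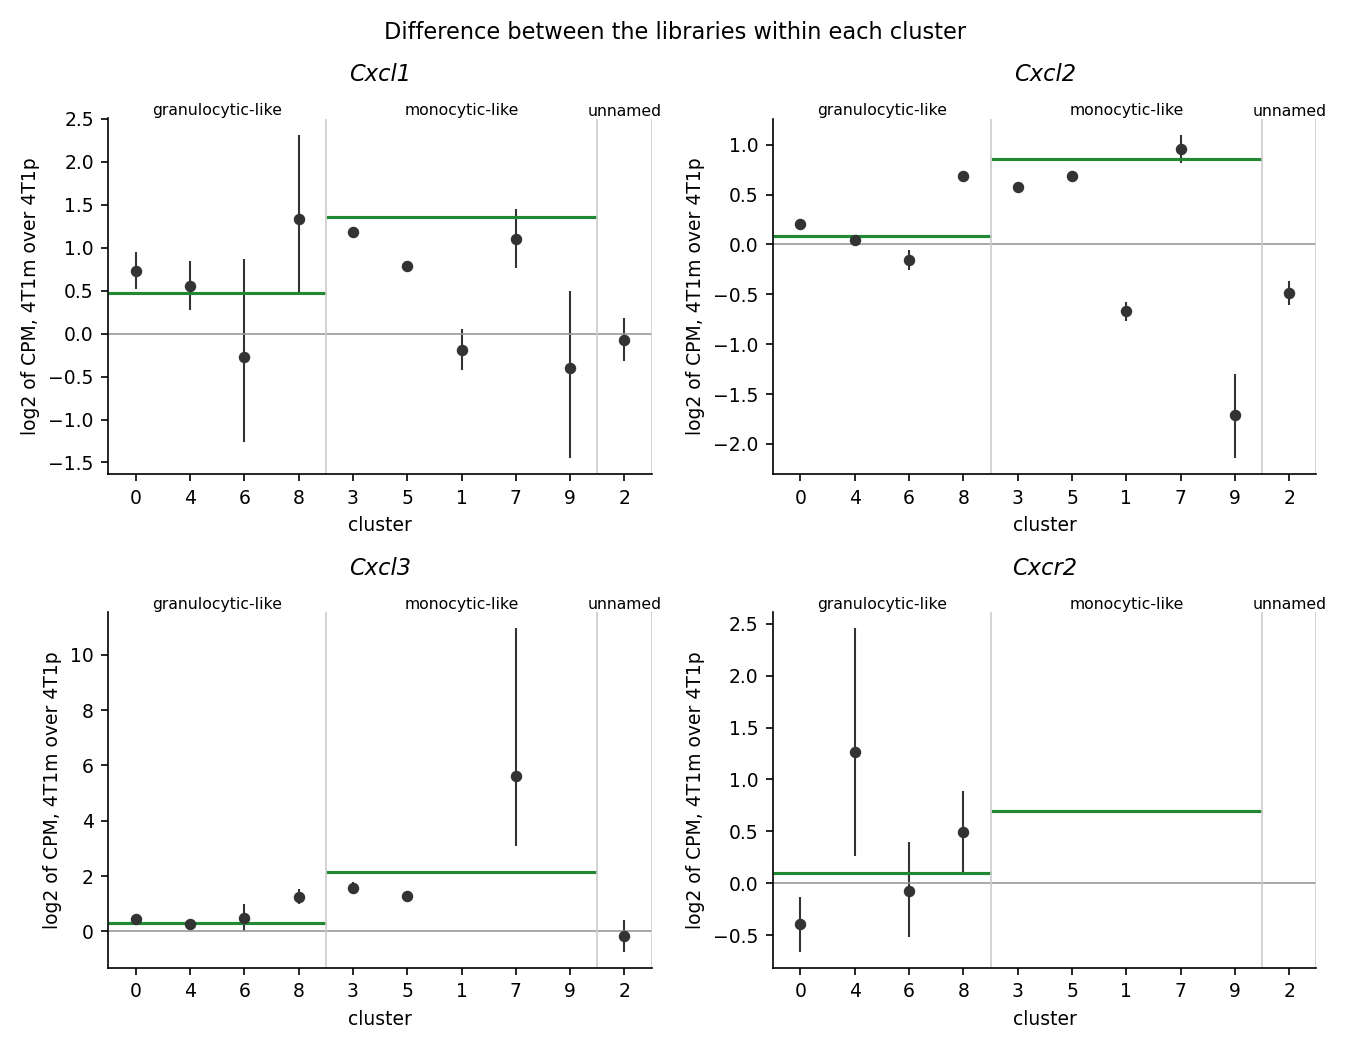
Log2 ratio of CPM (4T1m over 4T1p) of Cxcl1, Cxcl2, Cxcl3 and Cxcr2 within each cluster with at least 50 UMIs, with exact binomial 95% intervals (points); green lines are the ratios of the pooled lineages and the grey line is 0. Clusters 0, 3, 4, 5, 7 and 8 lie above 0 for all 3 ligands, and clusters 1, 9, 2 and 6 lie below 0 for Cxcl2. The Cxcl3 point of cluster 7 rests on 64 UMIs against 1, and 41 of the 64 were in 1 cell.

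Other markers differed between the libraries as well. The summed level of 10 dissociation-associated genes was lower in the library labelled 4T1m in both lineages. It was 11991 and 6752 CPM in monocytic-like cells and 10350 and 7796 CPM in granulocytic-like cells. In monocytic-like cells Fos, Jun, Ier2 and Dusp1, 4 of the 10, were at least 2-fold lower there, against 1.98% of 8874 genes. None of the 10 was at least 2-fold higher, against 7.47%. In granulocytic-like cells none of the 10 was 2-fold apart, against 7.13% of 4490 genes higher and 3.23% lower. The depth of monocytic-like cells also differed, with medians of 1813.5 and 8118 UMIs. The part of either in the ligand levels was not tested.

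The regulators of these genes were read from fixed lists. Of 7 NF-kB factors and feedback genes, 2 were at least 2-fold higher in monocytic-like cells labelled 4T1m and none lower, against 7.47% and 1.98% of all genes: Nfkb1, a DNA-binding subunit, at 1.43 (1.30 to 1.56) and Rel, another subunit, at 1.25 (1.13 to 1.37). Nfkb1 and Rel were also the 2 of 7 at least 2-fold higher in granulocytic-like cells, against 7.13% of all genes, at 1.11 (0.74 to 1.51) and 1.03 (0.77 to 1.29). The list's medians were 0.38 and 0.58. Nfkbia, the inhibitor that NF-kB itself induces, was highest in the clusters richest in Cxcl2, with 12808 and 8678 CPM in cluster 0 and 9068 and 9051 CPM in cluster 4, against 3957 and 2480 CPM in cluster 6. Of 7 inducing cytokines, 5 had enough UMIs in monocytic-like cells and 1, Il6, was at least 2-fold higher in the library labelled 4T1m, against 7.47% of all genes, at 1.37 (1.18 to 1.58). Il1b, which induces these chemokines, had 0.99 (0.96 to 1.02) there and -0.01 (-0.05 to 0.03) in granulocytic-like cells. Of 3 mRNA decay factors none was 2-fold apart between the libraries in either lineage. The shares of all genes were 7.47% higher and 1.98% lower in monocytic-like cells, and 7.13% and 3.23% in granulocytic-like cells. Zfp36, which binds AU-rich elements of such mRNAs, had -0.96 (-1.01 to -0.91) in monocytic-like cells. The median of this list there was 0.51, with the rest of the list at that value or above. Of 10 listed genes of receptor signalling and desensitization, Gnai3 and Rac2 were at least 2-fold higher in granulocytic-like cells in both libraries, Arrb2 and Rgs2 at least 2-fold lower in the library labelled 4T1p, and Plcb2 in the library labelled 4T1m. The 2 higher genes stand against 11.1% and 10.4% of all genes, and the 2 and 1 lower genes against 49.5% and 53.8%. Of 6 other ligands and receptors of the system, 2 had enough UMIs. Cxcr1 was at least 2-fold higher in granulocytic-like cells in both libraries, against 11.1% and 10.4% of all genes. Pf4, a CXC chemokine that lacks the Glu-Leu-Arg motif, was at least 2-fold lower there in both, as were 49.5% and 53.8%. Between the libraries, Pf4 was at least 2-fold higher in granulocytic-like cells labelled 4T1m, against 7.13% of all genes.

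Genes with a pattern most like each member were found over 22 cluster-by-library groups of at least 20 cells, among 6418 genes, by Pearson's r of log2(CPM + 10). These groups share libraries and depth, and r is given as a description. For Cxcl1 they were Tubb6 (0.93), Metrnl (0.91), Il1a (0.90), Eps8 (0.90) and Rbm47 (0.89). For Cxcl2 they were Slfn2 (0.98), Rab20 (0.97), Ccl3 (0.96), Ccrl2 (0.96) and Slc7a11 (0.96). For Cxcl3 they were Clec4d (0.94), Slc7a11 (0.94), Noct (0.93), Gadd45a (0.92) and Arhgef3 (0.92). For Cxcr2 they were Steap4 (0.97), Mrgpra2b (0.96), Trim30b (0.96), S100a9 (0.95) and Stfa2l1 (0.95). Among the members, Cxcl2 and Cxcl3 had an r of 0.88, Cxcl1 and Cxcl2 0.48, and Cxcl1 and Cxcl3 0.35. Cxcr2 had an r of 0.62 with Cxcl2, 0.61 with Cxcl3 and -0.28 with Cxcl1.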

How the data were processed

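Single-cell RNA sequencing was performed on GR-1+ tumor cells. Per the study's methods the authors used Cell Ranger and GRCm38; the deposited values are unnormalized counts of UMIs, and the files themselves carry software version 3.1.0. Levels were computed here as CPM from all UMIs of a group, ribosomal RNA genes included. Clusters came from SCTransform on both libraries merged (3000 variable genes, the 5 genes, Gm42418 and AY036118 left out), 11 principal components and Louvain at resolution 0.8. A Ptprc UMI was not required. Clusters were named from fixed marker lists. The cells with the highest Scrublet scores in each library (13 and 44) were marked as doublets, at an assumed rate of 1% per 1000 cells. They were removed only as an alternative. Where depth differed, cells were thinned to 1000 UMIs and shallower ones left out. A group with 0 UMIs was given the level of 3 counts.

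Total kept UMIs were 5570882 and 10831715. The named genes were the 5 members, fixed lists of regulators, each cluster's leading genes and the 5 genes most like each member. The members and lists were chosen with earlier results of these data known. Interval and ratio code was tested on simulated data. Grk2 was listed under no such symbol. Alternatives are described below. Clustering used Seurat 5.3.0 and sctransform 0.4.2 (R 4.3.3, Matrix 1.6.5). All other steps used Python 3.11.15 (pandas 2.3.3, numpy 2.4.6, scanpy 1.11.5, scipy 1.17.1, matplotlib 3.10.9).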

Additional observations from a re-analysis of the deposited data

Results flagged for a closer look

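Within a lineage, clusters differed in opposite directions between the libraries, and with 1 library per tumor type none of these differences was tested. For Cxcl2 in monocytic-like cells, the log2 ratio of 4T1m over 4T1p was -1.71 in cluster 9, which has 22 cells in the library labelled 4T1m, and 0.96 in cluster 7. The thinned shares of cells with a Cxcl2 UMI were 41.4% and 44.4% in cluster 9 and 47.6% and 64.0% in cluster 7. For Cxcl2 in granulocytic-like cells the log2 ratio was -0.16 in cluster 6 and 0.68 in cluster 8. For Cxcr2 in granulocytic-like cells it was -0.40 in cluster 0 and 1.27 in cluster 4, the latter from 68 and 9 UMIs.

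Barcodes outside the limits on genes, UMIs and mitochondrial share entered no comparison but held the same transcripts. Cxcl2 stood there at 7734 CPM in the library labelled 4T1p (513 barcodes) and 11261 CPM in the library labelled 4T1m (657 barcodes), and Cxcr2 at 17.7 and 49.6 CPM. They held 26.0% and 15.0% of all Cxcl2 UMIs and 16.4% and 13.8% of all Cxcr2 UMIs. Barcodes over the UMI or gene limit held 28.3% and 13.5% of all Cxcl1 UMIs, in 57 and 59 barcodes.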

How the results depend on the processing

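No paired analysis was possible because each tumor type had 1 library. Counted as UMIs per cell, the granulocytic-like to monocytic-like log2 ratio in the library labelled 4T1m reversed for Cxcl2 (-0.20) and Cxcl3 (-0.37), and 1 gene in place of 3 was at least 2-fold higher. With at most 5% mitochondrial UMIs that count was also 1. In granulocytic-like cells the Cxcl2 ratio between libraries reversed to -0.0098 per cell, -0.020 by the mean of each cell's CPM and -0.0066 with thinned cells. In monocytic-like cells the count of genes at least 2-fold higher in the library labelled 4T1m, 2 as reported, was 4 per cell, 4 by the mean of each cell's CPM, 4 at 1.5-fold and 1 with equal cluster weights. In granulocytic-like cells it was 1 instead of 0 when each cell's own markers set its lineage. The cause was not tested for any of these. Cxcl1 kept its sign in all 13 or 14 alternatives of each comparison, between -4.24 and -1.08 for granulocytic-like over monocytic-like cells, and Cxcr2 lay between 4.05 and 6.95 there. Cxcr2 between libraries, whose reported intervals include 0, fell on either side of 0. The remaining 117 alternatives of the counts of genes stayed within 1.5 times of the reported ones. Depth limits Cxcl5 and monocytic Cxcr2, which rested on 29 and 75 UMIs.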
